A study of Mus musculus with 10 samples.

Results

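The Ikaros family genes Ikzf1 to Ikzf5 were followed through 57 of the 50039 open chromatin regions (OCRs) that the counts cover. A region belonged to a gene if its centre lay inside the gene, or if the nearest RefSeq transcription start site (TSS) to its centre was one of that gene. Ikzf1 had 25 regions, Ikzf2 15, Ikzf3 13, Ikzf4 3 and Ikzf5 1. For 10 of the 57, all inside a family gene, the nearest TSS was that of another gene. Regions are named by the distance of their centre from the most upstream curated TSS of the gene, with positive values in the direction of transcription. Assignment by distance is a rule of thumb, since a region can act on a gene farther away.

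The assay was ATAC-seq, in which the Tn5 transposase cuts and tags open DNA, on group 2 innate lymphoid cells (ILC2s), tissue-resident lymphocytes of type 2 immunity. There were 2 libraries for each of 5 tissues, namely bone marrow (BM), lung, pancreas, small intestine (SI) and large intestine (LI). The mice were wild-type male C57BL/6 aged 6 weeks, for which the labels name no treatment, and each library held 50000 sorted cells, with 16 mice pooled for BM, lung or pancreas and 10 for LI or SI. Isolation and sort differed by tissue. BM was flushed, while the other tissues were digested with enzymes. BM cells were sorted as Lin-ST2+CD25+ on a FACSAria III. LI, lung and pancreas cells were sorted by CD45, CD127, ST2 and CD25, and SI cells by KLRG1 with CD45, CD127 and Thy1, both on a Moflo Astrios. Isolation, gate and sorter cannot be told apart from tissue where BM is compared with another tissue. The gate cannot where SI is compared with another tissue. Isolation of cells from the gut wall included an EDTA step. This isolation and pool size likewise cannot be told apart from tissue where LI, SI or both are set against BM, lung or pancreas. The study calls the libraries of a tissue biological duplicates. In the fit of all 10 libraries, the spread between libraries of the same tissue was estimated jointly over the 5 tissues. The p-values of that fit therefore do not rest on the 2 libraries of a tissue alone. Since each library pools mice, the spread between mice was not measured.

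Ikaros proteins are zinc finger transcription factors of lymphocytes. Fingers near one end of the protein bind DNA, and fingers near the other end join family members into dimers. They recruit chromatin remodelling and histone deacetylase complexes such as NuRD, and can repress or activate their targets. Ikaros (Ikzf1) is needed for lymphoid development, Helios (Ikzf2) and Eos (Ikzf4) are known from regulatory T cells, Aiolos (Ikzf3) from B cells and innate lymphocytes, and Pegasus (Ikzf5) is the most divergent member.

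Total counts lay between 10282987 (pancreas replicate 2) and 32797872 (lung replicate 2). Each of the 57 regions held 442 to 17656 counts over the 10 libraries. Levels are given as CPM, the count of a region relative to the library size after TMM scaling. All 10 ILC2 marker genes had regions, with 137 to 170 CPM per marker in SI, 182 to 246 in BM, LI and lung, and 237 to 259 in pancreas, so that both SI libraries lay below the other 8. Of the 5 B cell markers 1 (Ebf1) had a region, with 1.74 and 6.40 CPM per marker in SI and 1.20 to 2.96 in the other tissues. Of the 5 myeloid markers 1 (Spi1) had a region, with 4.17 to 7.92. Cd8a was the T cell marker without a region, and the 5 markers gave 11.0 to 18.8 CPM per marker. The 3 epithelial markers gave 5.77 to 6.62 CPM per marker in BM and 10.3 to 15.3 in the other tissues. The endothelial markers gave 28.4 and 42.2 CPM per marker in SI and 24.3 to 34.3 in the other tissues. The ILC1 and NK list, without regions at Eomes and Ncr1, gave 25.1 to 30.9 in all tissues. The part of such cells in the results was not tested. In bulk libraries, fewer cells with a region open and a less open region per cell cannot be told apart.

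The central 300 bases of 5 regions are shown, because these are the 4 regions in which LI and SI together departed from the other tissues, and the region of Ikzf1 with the smallest p. The sequence is the + strand of GRCm38. Capitals mark matches, on either strand, to 8 motifs. The core letters bound by the Ikaros family were taken as TGGGAA, and those of RUNX factors as TGTGGT. Letters searched for the GATA factors, which include the lineage factor of ILC2s, were AGATAA. AP-1 was searched as TGANTCA, the aryl hydrocarbon receptor core (AHR) as GCGTG, and ETS factors as CAGGAA. KLF and SP factors of GC-rich promoters were searched as GGGCGG, while nuclear receptors had the letters AGGTCA. The first 3 regions were higher in the intestine, the fourth was lower there, and the fifth was high in LI and pancreas. In Ikzf3 +12.9 kb the Ikaros and AHR letters overlap in a single run of capitals.
Ikzf2 +141.6 kb (chr1:69544256-69544555): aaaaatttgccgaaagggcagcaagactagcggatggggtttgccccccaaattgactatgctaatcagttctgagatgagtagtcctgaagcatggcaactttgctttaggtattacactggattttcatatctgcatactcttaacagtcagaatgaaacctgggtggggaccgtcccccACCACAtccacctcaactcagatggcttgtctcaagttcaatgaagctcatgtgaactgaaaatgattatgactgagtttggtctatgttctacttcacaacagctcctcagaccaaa
Ikzf1 +30.2 kb (chr11:11716010-11716309): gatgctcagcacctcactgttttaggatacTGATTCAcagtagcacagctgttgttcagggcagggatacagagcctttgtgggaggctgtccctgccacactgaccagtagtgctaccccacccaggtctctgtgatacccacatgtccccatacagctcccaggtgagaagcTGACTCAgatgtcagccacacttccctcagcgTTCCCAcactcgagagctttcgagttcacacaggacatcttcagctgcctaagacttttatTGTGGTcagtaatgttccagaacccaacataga
Ikzf3 +12.9 kb (chr11:98532962-98533261): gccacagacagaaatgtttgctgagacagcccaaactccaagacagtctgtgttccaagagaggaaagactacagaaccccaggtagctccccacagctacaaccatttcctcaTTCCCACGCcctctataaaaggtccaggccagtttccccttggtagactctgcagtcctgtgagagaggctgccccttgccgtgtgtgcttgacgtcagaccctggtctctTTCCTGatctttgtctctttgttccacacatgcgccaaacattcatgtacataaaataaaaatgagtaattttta
Ikzf1 +40.5 kb (chr11:11726275-11726574): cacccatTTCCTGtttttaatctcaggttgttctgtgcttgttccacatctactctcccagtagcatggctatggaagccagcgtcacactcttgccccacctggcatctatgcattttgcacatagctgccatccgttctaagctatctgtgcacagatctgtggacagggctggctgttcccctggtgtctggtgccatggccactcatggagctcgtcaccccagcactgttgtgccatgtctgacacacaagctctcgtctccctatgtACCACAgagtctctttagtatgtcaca
Ikzf1 +64.5 kb (chr11:11750322-11750621): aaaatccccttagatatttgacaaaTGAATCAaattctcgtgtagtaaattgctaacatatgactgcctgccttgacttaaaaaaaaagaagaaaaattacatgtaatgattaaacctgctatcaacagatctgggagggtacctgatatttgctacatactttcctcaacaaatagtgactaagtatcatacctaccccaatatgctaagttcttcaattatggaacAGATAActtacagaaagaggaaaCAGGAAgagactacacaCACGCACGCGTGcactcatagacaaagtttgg

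No motif of this list stood in all 3 regions that were higher in the intestine, within the 300 bases shown. Ikzf1 +30.2 kb held AP-1 letters 2 times and Ikaros and RUNX letters once each, Ikzf2 +141.6 kb held RUNX letters once, and Ikzf3 +12.9 kb held Ikaros, AHR and ETS letters once each. Ikzf1 +64.5 kb held AHR core letters 3 times in 1 short run, and AP-1, GATA and ETS letters once each. In the central 500 bases, TGGGAA stood in 31 of the 57 family regions (54.4%) and in 34.6% of all 50039 regions. TGTGGT also stood in 31 (54.4%), against 39.1% of all regions. GGGCGG stood in 7 (12.3%) against 31.3%. Outside promoters these shares were 54.9%, 58.8% and 5.88% in 51 family regions, and 35.4%, 44.1% and 19.4% in all such regions. The other 5 motifs stood in 22.8% to 45.6% of the family regions and in 23.2% to 50.9% of all regions. These are shares of letters, not of bound sites.

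The family as a whole varied between tissues about as often as other OCRs. At an adjusted p under 0.05, 24 of the 57 regions differed between tissues in a joint edgeR test, that is 42.1%, and 44.2% of all 49981 regions tested did. The median region of the family was 1.89-fold more open in its highest than in its lowest tissue, and the median over all regions was 1.90. Calls fell on 14 of 25 regions of Ikzf1, 5 of 15 of Ikzf2, 4 of 13 of Ikzf3, 1 of 3 of Ikzf4 and on no region of Ikzf5, where the single region had an unadjusted p above 0.05 and was not called by DESeq2 either. Of the 24 called regions, BM was the lowest tissue in 13 and the highest in 1. LI was the highest tissue in 8, pancreas and SI in 6 each and lung in 3. How often each tissue was highest or lowest over all called regions was not counted. In the 4 contrasts with BM, 39.7% to 41.4% of the calls over all regions were higher in BM. Of the 7 regions that hold a TSS of their gene 1 was called, against 20 of the 43 others inside a gene.

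**Figure D1:**
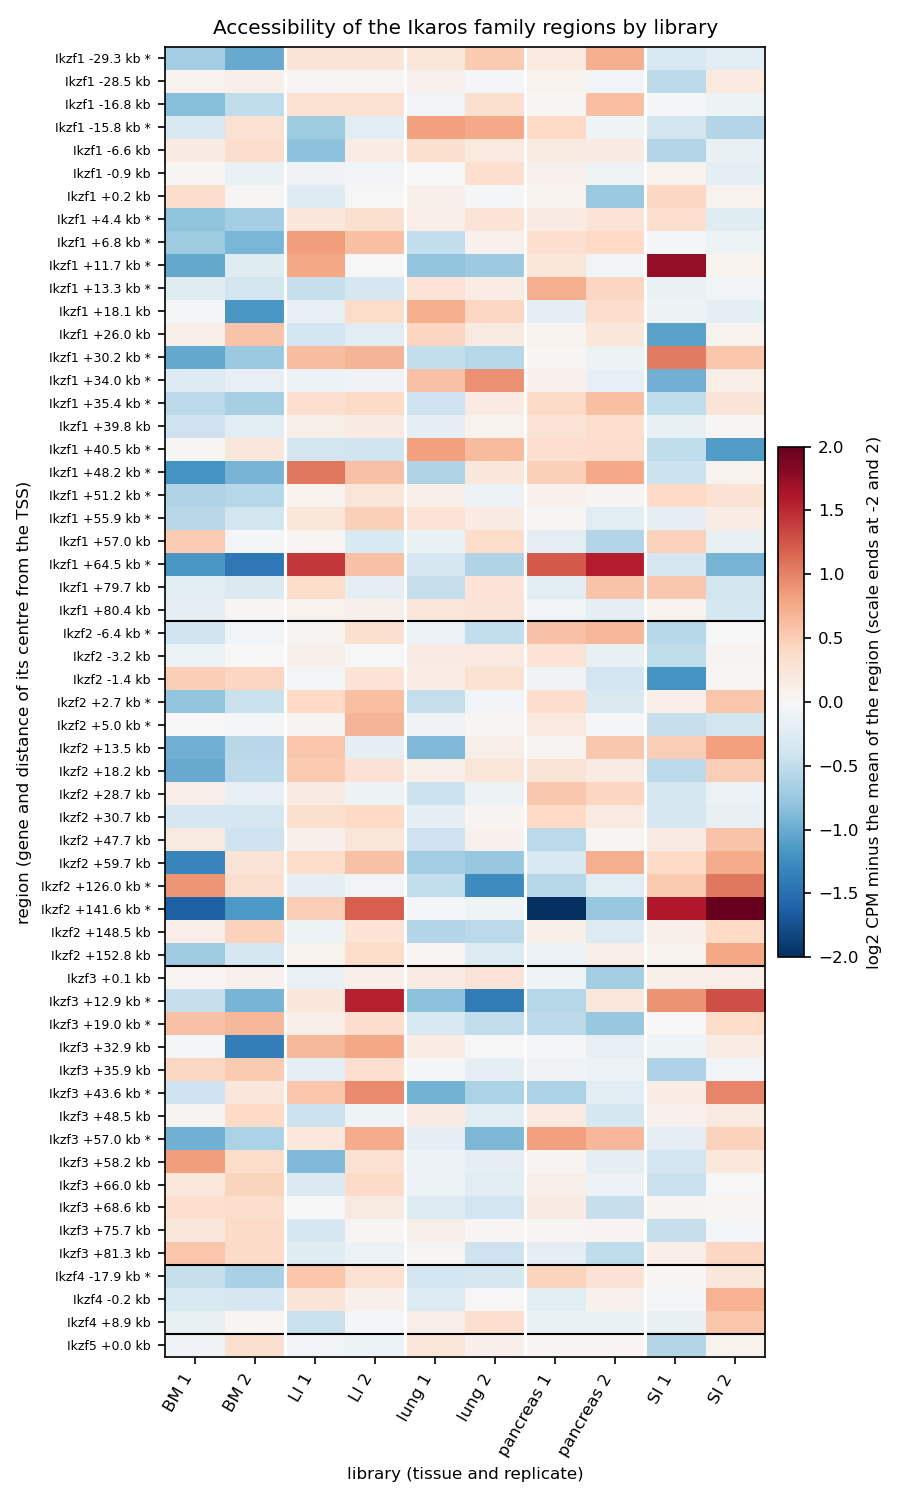
Heat map of the 57 Ikaros family regions (rows, ordered by gene and distance from the TSS) in the 10 libraries (columns). Colour gives log2 CPM minus the mean of the region, and an asterisk marks an adjusted p under 0.05 for tissue, which 24 regions reached. Ikzf2 +141.6 kb and Ikzf1 +64.5 kb show the widest range.

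The widest difference of the family lay in an intron of Ikzf2, which encodes Helios. Ikzf2 +141.6 kb (chr1:69544151-69544660) read 13.3 and 26.5 CPM in SI and 6.19 and 9.99 in LI. Lung gave 4.27 and 4.11 CPM, BM 1.42 and 1.98, and pancreas 0.942 and 2.59. Both SI libraries lay above every other library, both LI libraries lay above every lung, BM and pancreas library, and BM and pancreas overlapped. The tissue effect had an adjusted p of 1.33e-05 (edgeR), and it stayed at or below 0.000228 in each of the 16 alternative fits. SI exceeded BM by 3.55 ± 0.43 on the log2 scale (SE), pancreas by 3.60 ± 0.45, lung by 2.25 ± 0.39 and LI by 1.29 ± 0.38, with adjusted p of 3.20e-05, 4.44e-05, 0.000645 and 0.0456. LI exceeded lung by 0.96 ± 0.39, which did not pass (adjusted p = 0.126), and BM by 2.26 ± 0.42, which did (0.000975). The share of all Ikzf2 counts that fell on this region does not depend on the scaling between libraries. It was 8.60% and 11.9% in SI, 3.04% and 4.06% in LI, 2.31% to 2.48% in lung, and 0.427% to 1.27% in BM and pancreas. The nearest TSS is that of the predicted gene Gm28497.

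The adjacent family regions on either side did not share this profile. Ikzf2 +126.0 kb (chr1:69559656-69560183), 14996 bases away, read 4.53 and 6.55 CPM in SI and 5.82 and 3.96 in BM. LI gave 2.79 and 3.04 CPM, lung 2.23 and 1.32 and pancreas 2.12 and 2.70. BM and SI were thus high together, with overlapping libraries, and every other library was lower (tissue effect, adjusted p = 0.00897). SI exceeded lung by 1.65 ± 0.38 on the log2 scale (adjusted p = 0.00543) and pancreas by 1.22 ± 0.40 (0.0389), while BM exceeded lung by 1.47 ± 0.39 (0.0128). The excess of SI over LI (0.15), of BM over LI (0.158) and of BM over pancreas (0.0691) did not pass. On the far side, Ikzf2 +148.5 kb ranged from 7.13 to 14.7 CPM and was not called (adjusted p = 0.0567). Farther on, Ikzf2 +152.8 kb had its highest mean in SI and its lowest in BM. It was not called (0.147), although SI exceeded BM (0.0401). A region past the gene end (chr1:69530676-69531205) was called (0.0459), with SI at 7.66 and 13.3 CPM and BM at 4.6 and 5.25.

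Upstream of Ikzf2, the region -6.4 kb (chr1:69692073-69692597) was the most open in pancreas, at 57.3 and 60.5 CPM. It read 39.6 and 47.9 CPM in LI, 28.9 and 36.9 in BM, 35.4 and 27.1 in lung, and 25.8 and 38.6 in SI. Pancreas did not overlap any other tissue, and its excess passed over lung (0.91 ± 0.23 on the log2 scale, adjusted p = 0.0257), SI (0.87 ± 0.23, 0.0121) and BM (0.84 ± 0.23, 0.0138), but not over LI (0.43 ± 0.23, 0.405). Its tissue effect, with an adjusted p of 0.00953, was lost with library size alone (0.0659) and without pancreas replicate 2 (0.0663). Ikzf2 +5.0 kb, the most counted region of the gene, read 28.2 to 61.7 CPM and stood at the threshold. Its adjusted p of 0.0491 was lost in 12 of 16 alternatives and reached 0.282 with library size alone. Ikzf2 +18.2 kb was lower in BM (2.50 and 3.5 CPM) than in each other tissue (3.47 to 7.24 CPM) at unadjusted p. BM replicate 2 lay above SI replicate 1 there, and the joint test did not pass (adjusted p = 0.0925).

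**Figure D2:**
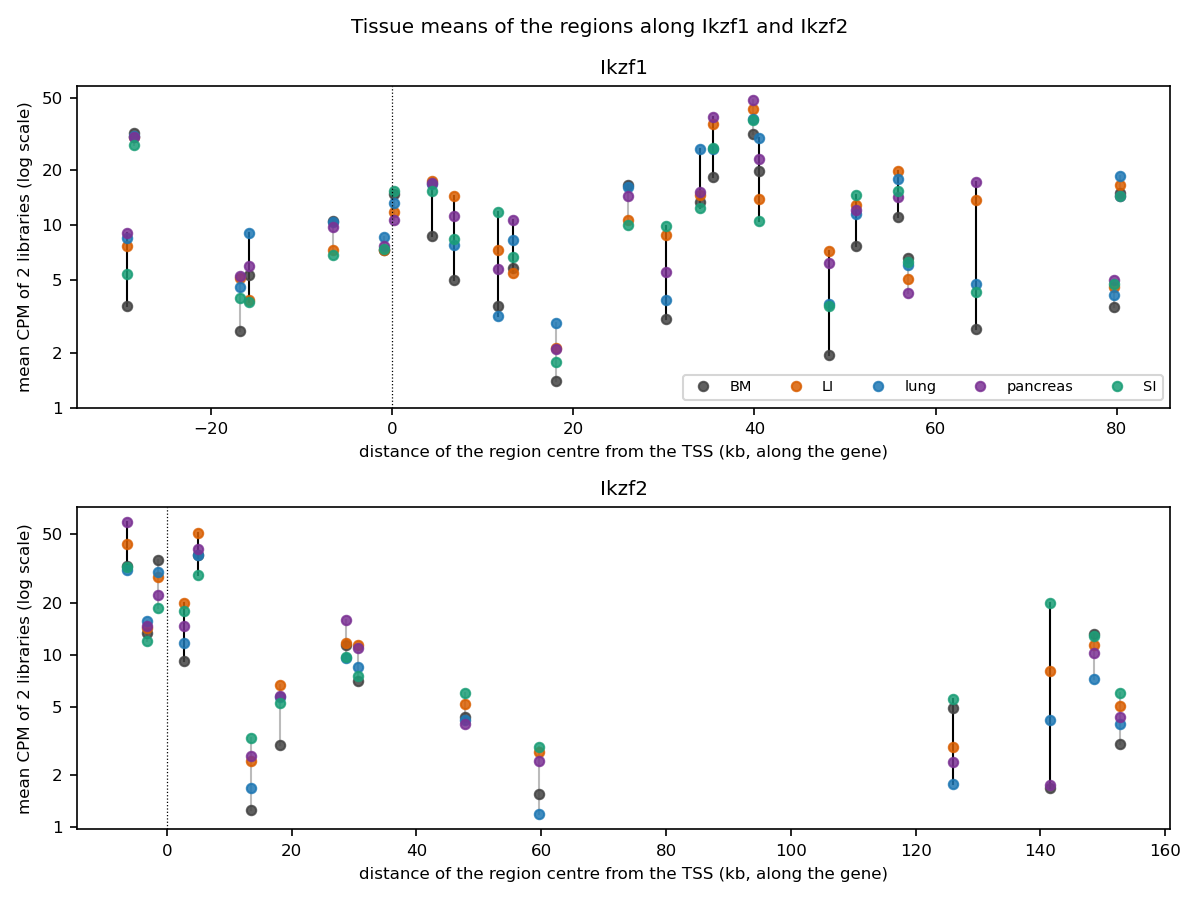
Mean CPM of the 2 libraries of each tissue (log axis) against the distance of the region centre from the TSS in kb, for the 25 regions of Ikzf1 and the 15 of Ikzf2. Black bars join the tissues of regions with an adjusted p under 0.05 for tissue, grey bars the others. The SI and LI points of Ikzf2 +141.6 kb lie far above BM and pancreas.

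Ikzf1, which encodes Ikaros, held regions of opposite intestinal direction. The intronic Ikzf1 +30.2 kb (chr11:11715909-11716409) read 8.63 and 9.04 CPM in LI and 11.7 and 8.26 in SI. Pancreas gave 5.83 and 5.29 CPM, lung 4.0 and 3.81 and BM 2.79 and 3.36. All 4 intestinal libraries lay above the other 6. The tissue effect had an adjusted p of 0.00051 and was called in all 16 alternatives. SI exceeded BM by 1.69 ± 0.29 on the log2 scale (adjusted p = 0.000485), lung by 1.35 ± 0.28 (0.00241) and pancreas by 0.83 ± 0.28 (0.0476). LI exceeded BM by 1.52 ± 0.29 (0.00111) and lung by 1.18 ± 0.28 (0.0124). The smallest of the 6 contrasts, LI over pancreas at 0.66 ± 0.29, did not pass after adjustment (adjusted p = 0.269, edgeR).

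Ikzf1 +40.5 kb (chr11:11726159-11726690) ran the other way. Lung gave 32.1 and 28.2 CPM, pancreas 23.0 and 23.1 and BM 18.4 and 21.2. It read 14.1 and 13.8 CPM in LI and 12.8 and 8.39 in SI, so all 4 intestinal libraries lay below the other 6. The tissue effect (adjusted p = 0.000467) was called in all 16 alternatives. Lung exceeded SI by 1.51 ± 0.23 on the log2 scale (adjusted p = 0.000228) and LI by 1.11 ± 0.23 (0.00496), and pancreas exceeded SI by 1.13 ± 0.23 (0.0026). The contrasts of LI with BM (adjusted p = 0.104) and with pancreas (0.107) did not pass after adjustment.

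Only 74 bases separate this region from Ikzf1 +39.8 kb, the most counted region of the gene. Ikzf1 +39.8 kb read 43.0 and 44.2 CPM in LI and 35.6 and 40.1 in SI. Pancreas gave 47.5 and 49.8 CPM, lung 34.5 and 41.7 and BM 29.6 and 33.9. The intestine did not stand apart here, and the tissue effect was not called (adjusted p = 0.0843), although it was with the trend on mean count removed (0.00577) and without SI replicate 2 (0.0412). Counts of +40.5 kb divided by those of +39.8 kb need no scaling between libraries. This ratio was 0.329 and 0.312 in LI and 0.359 and 0.209 in SI. It was 0.485 and 0.463 in pancreas, 0.622 and 0.626 in BM, and 0.929 and 0.676 in lung. The ratio ordered the tissues without overlap between intestine, pancreas, BM and lung.

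**Figure D3:**
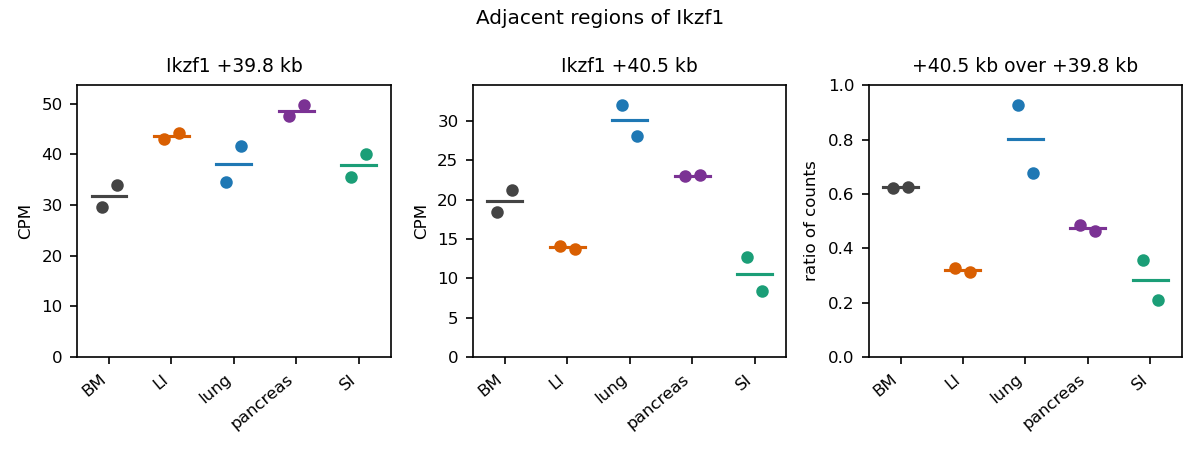
CPM of the adjacent regions Ikzf1 +39.8 kb and +40.5 kb in each library, and the ratio of their counts. Points are libraries and bars the mean of 2. The ratio lies at 0.209 to 0.359 in LI and SI and at 0.463 to 0.929 in the other tissues.

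Ikzf1 +64.5 kb (chr11:11750181-11750762) joined LI with pancreas. It read 17.5 and 9.86 CPM in LI and 15.4 and 19.4 in pancreas. SI gave 5.2 and 3.45 CPM, lung 5.21 and 4.33 and BM 2.94 and 2.44. The 4 LI and pancreas libraries lay above the other 6, and SI overlapped lung. The tissue effect (adjusted p = 2.27e-05) was called in all 16 alternatives. Pancreas exceeded BM by 2.69 ± 0.34 on the log2 scale (adjusted p = 4.25e-05), SI by 2.01 ± 0.32 (0.000365) and lung by 1.86 ± 0.32 (0.00343). LI exceeded SI, the other intestinal tissue, by 1.66 ± 0.32 (0.00402), and did not differ from pancreas beyond the spread (0.35 ± 0.31 lower, adjusted p = 0.686). The region took 3.0% to 5.59% of all Ikzf1 counts in LI and pancreas and 0.939% to 1.86% in the other tissues. Its nearest TSS is that of Fignl1, the gene downstream of Ikzf1.

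BM had the lowest accessibility at several further regions of Ikzf1. At Ikzf1 +4.4 kb (chr11:11690002-11690597), which holds the TSS of further curated and predicted Ikzf1 transcripts, BM read 8.37 and 9.16 CPM and the other 8 libraries 12.4 to 18.4. BM was lower than LI by 1.01 ± 0.24, than lung by 0.94 ± 0.24, than pancreas by 0.95 ± 0.24 and than SI by 0.81 ± 0.24 on the log2 scale, all 4 past the adjusted threshold (largest adjusted p = 0.0195). The joint test (adjusted p = 0.0156) no longer passed without BM replicate 1 (0.146) or BM replicate 2 (0.0857), which leaves BM with 1 library. At the other 3 regions below, BM was lower than each other tissue at unadjusted p, and in 2 or 3 of the 4 contrasts after adjustment. Ikzf1 +6.8 kb read 5.33 and 4.65 CPM in BM and 6.23 to 15.6 elsewhere, and its tissue effect (adjusted p = 0.0022) held in all 16 alternatives. Ikzf1 +48.2 kb read 1.76 and 2.12 CPM in BM and 2.67 to 8.37 elsewhere (adjusted p = 0.00426, called in all 16). Ikzf1 +51.2 kb read 7.59 and 7.78 CPM in BM and 10.6 to 15.2 elsewhere, but its call (adjusted p = 0.0327) was lost in 8 of 16 alternatives. At none of these 4 regions did a BM library overlap another library. The epithelial markers, too, were lower in BM than in each other tissue, at the levels given above, and their part in these differences was not tested.

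At 1 region of Ikzf1 lung stood highest. Ikzf1 +34.0 kb read 23.3 and 29.5 CPM in lung and 8.04 to 17.0 in the other 8 libraries. Lung exceeded SI by 1.07 ± 0.28 (adjusted p = 0.0121) and BM by 0.97 ± 0.28 (0.024), but LI (0.0654) and pancreas (0.121) only at unadjusted p. Its call for tissue (adjusted p = 0.0214) was lost without lung replicate 2 (0.246) and without BM replicate 1 (0.0515). Ikzf1 +11.7 kb, chosen after its values were seen, read 18.2 CPM in SI replicate 1 and 5.68 in SI replicate 2, so that its highest tissue mean rested on 1 library.

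Promoters showed less. Ikzf1 -0.9 kb, at the start of predicted Ikzf1 transcripts, read 6.72 to 9.69 CPM over the 10 libraries (adjusted p = 0.869). Ikzf1 +0.2 kb, chosen after the values were seen because it covers the curated TSS, read 7.76 to 17.2 CPM (0.43). Ikzf1 +4.4 kb, described above, also covers a curated TSS, and it was called (0.0156). The Ikzf3 promoter read 11.3 to 22.0 CPM (0.295), that of Ikzf4 11.8 to 24.1 (0.153), and the single region of Ikzf5 51.1 to 95.5 (0.438). Ikzf2 -1.4 kb, at the start of predicted Ikzf2 transcripts, read 36.2 and 34.7 CPM in BM and 11.2 and 26.3 in SI. Its SI libraries lay far apart, and its adjusted p of 0.0853 fell to 0.000432 without SI replicate 2. No family region of the table covered the curated Ikzf2 TSS. Over all genes, 31.8% of promoter regions were called for tissue, and 48.0% of the other regions. The Ikzf5 promoter is also that of Acadsb on the opposite strand, and the reads do not tell these genes apart.

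Of Ikzf4, which encodes Eos, the region -17.9 kb (chr10:128663562-128664175) differed between tissues. It lies in an intron of predicted Ikzf4 transcripts with a more distant start, and its nearest TSS is that of Gm51824. Repeats mask 84% of its central bases, against a median of 6.2% in the family. LI gave 15.9 and 13.4 CPM, pancreas 14.7 and 13.2 and SI 11.1 and 12.6. It read 8.27 and 8.53 CPM in lung and 7.83 and 6.90 in BM, below all other libraries. The tissue effect (adjusted p = 0.00752) was called in all 16 alternatives. LI exceeded BM by 0.99 ± 0.24 on the log2 scale (adjusted p = 0.00517) and lung by 0.80 ± 0.23 (0.0362), pancreas exceeded BM by 0.92 ± 0.24 (0.0111), and SI exceeded BM by 0.69 ± 0.23 (0.0401). The excess over lung of pancreas (edgeR, adjusted p = 0.0787) and of SI (0.149) did not pass. Ikzf4 +8.9 kb, the most counted region, ranged from 22.4 CPM (LI replicate 1) to 44.8 (SI replicate 2) and was not called (adjusted p = 0.285).

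Ikzf3, which encodes Aiolos, had 13 regions, of which 2 met a tissue pattern. Ikzf3 +12.9 kb read 3.49 and 8.78 CPM in LI, 5.54 and 7.28 in SI, and 1.13 to 3.45 in the other 6 libraries. It was the third region of the family that was higher in both intestinal tissues (tissue effect, adjusted p = 0.00144). Its LI libraries differed more than those of Ikzf1 +30.2 kb, and 4 of its 6 contrasts passed after adjustment. Ikzf3 +58.2 kb was higher in BM at unadjusted p (29.7 and 21.5 CPM against 8.98 to 20.6), with no contrast past adjustment and an adjusted p of 0.151 for tissue. Ikzf3 +19.0 kb was also called, with BM at 18.3 and 19.5 CPM and pancreas lowest at 8.48 and 7.23 (0.00243). So was Ikzf3 +57.0 kb, with pancreas at 25.9 and 23.2 CPM and BM at 7.58 and 9.43 (0.00179). LI overlapped pancreas there, at 17.0 and 24.6 CPM, and SI gave 12.85 and 20.3. Ikzf3 +43.6 kb was called as well, with LI at 5.32 and 6.99 CPM, SI at 4.04 and 7.14 and lung lowest at 1.88 and 2.35 (0.0109). Ikzf3 +75.7 kb, the most counted region of the family, read 58.1 to 104.7 CPM and was not called (0.167).

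**Figure D4:**
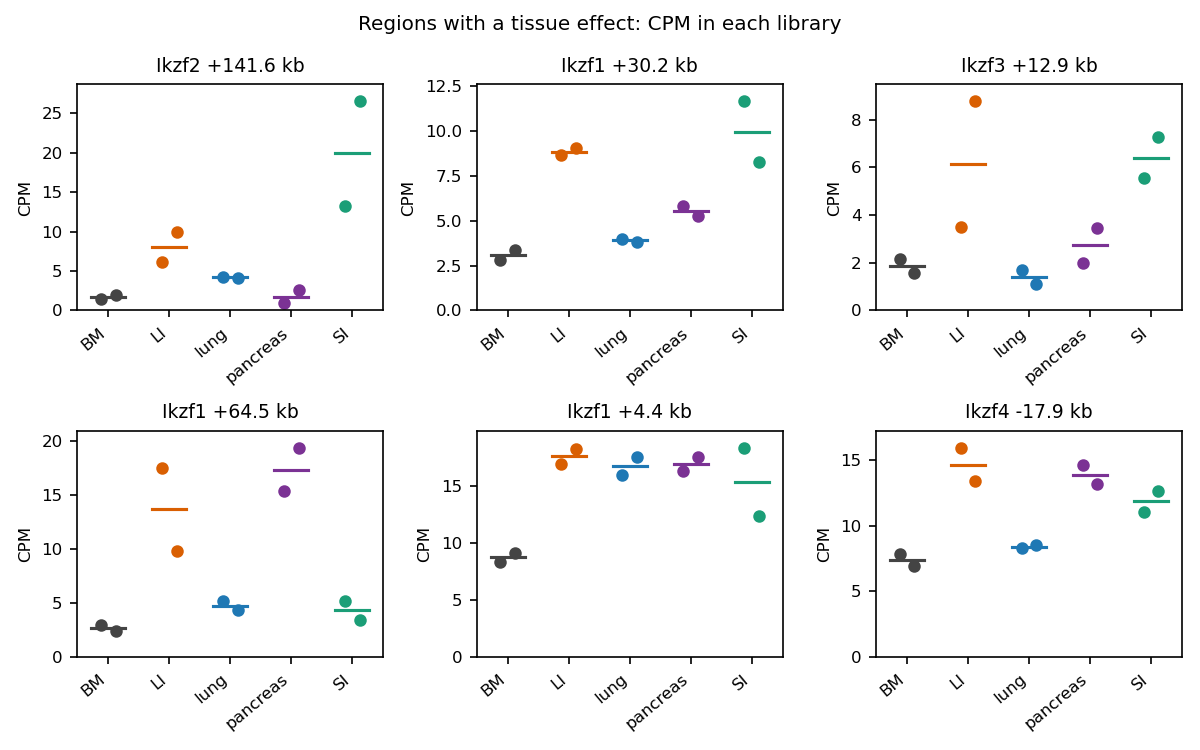
CPM in each library at 6 regions with a tissue effect, 1 panel per region with its own axis from 0. Points are libraries and bars the mean of the 2 libraries of a tissue. The upper row shows the 3 regions higher in LI and SI, and the lower row shows Ikzf1 +64.5 kb, high in LI and pancreas, Ikzf1 +4.4 kb, low in BM, and Ikzf4 -17.9 kb, low in BM and lung.

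Counts of patterns followed the rule that a difference has an unadjusted p under 0.05 in every contrast. Higher in 1 tissue than in each of the other 4 were 3 of 57 regions (5.26%), against 11.3% of all regions. These were Ikzf1 +34.0 kb in lung, Ikzf2 +141.6 kb in SI and Ikzf3 +58.2 kb in BM. Lower in 1 tissue were 5 (8.77%), all in BM, against 12.7% of all regions. Above each of the other 3 tissues in both LI and SI were 3 regions (5.26%), 1 each of Ikzf1, Ikzf2 and Ikzf3, against 2.18% of all regions. Lower in both was Ikzf1 +40.5 kb (1.75%), against 0.874%. With adjusted p-values in each contrast, 2 one-tissue patterns were left, Ikzf1 +4.4 kb and Ikzf2 +141.6 kb, and none of the 4 intestinal patterns was, although at least 4 of the 6 contrasts passed in each.

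Contrasts with BM held most of the pairwise calls of the family, as they did of all regions, and most of the family's went against BM. BM against LI gave 18 calls (background 30.9%), all lower in BM. At unadjusted p, 4 regions were higher and 22 lower in BM, and DESeq2 called 1 higher. BM against pancreas gave 14 calls (background 24.2%), with 13 lower in BM, and BM against SI gave 15 (25.8%), with 12 lower in BM. BM against lung gave 9 (19.0%), with 5 lower and 4 higher in BM. Of the calls over all regions, 39.7% to 41.4% were higher in BM in these 4 contrasts. The family's share of calls lay near the background in each of the 4 (31.6%, 24.6%, 26.3% and 15.8%), and what stood beside it was the direction. The median log2 difference of BM from LI was -0.35 over the 57 regions and -0.02 over all regions. It was -0.19 with the trend on mean count removed, where the calls against LI stood at 2 higher and 17 lower in BM. Against pancreas they were then 3 and 10, against SI 3 and 8 and against lung 5 and 5. With library size in place of TMM the median difference from LI was -0.29. That scaling moved the median of all regions by more than 0.1 in the contrasts of BM, LI or pancreas with lung or SI, to -0.17 for BM minus lung and -0.20 for BM minus SI. The family's calls then stood at 2 higher and 13 lower in BM against lung, and 1 higher and 17 lower in BM against SI.

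The other contrasts gave fewer calls. LI against lung gave 9 (background 10.9%), of which 7 were higher in LI, and lung against SI gave 10 (21.0%), of which 7 were higher in SI. Pancreas against SI gave 8 (20.5%), 4 in each direction. LI against SI gave 3 (8.44%), with Ikzf1 +64.5 kb and Ikzf2 +5.0 kb higher in LI and Ikzf2 +141.6 kb higher in SI. LI against pancreas gave 1 (3.27%), Ikzf2 +141.6 kb, higher in LI (2.32 ± 0.45 on the log2 scale, adjusted p = 0.0101). Lung against pancreas gave 3 (5.82%), all higher in pancreas, namely Ikzf1 +64.5 kb, Ikzf2 -6.4 kb and Ikzf3 +57.0 kb. At unadjusted p 3 regions were higher in lung and 6 in pancreas, and DESeq2 called 1 and 3. Of the calls over all regions, 75% were higher in LI against lung, 81.8% in LI against SI and 61.7% in LI against pancreas. The share was 47% higher in lung against SI, 58.7% in pancreas against SI and 27.8% in lung against pancreas. With library size alone, LI against lung stood at 4 higher and 3 lower in LI, pancreas against SI at 2 and 7, and lung against pancreas at 2 and 1, since the median of all regions moved to -0.24, -0.30 and 0.24.

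Summed over the regions with their nearest TSS at the gene, Ikzf1 alone of the 5 genes differed between tissues (edgeR), among 21851 genes of which 37.4% were called. Ikzf1 (22 regions) read 209 and 225 CPM in BM and 251 and 266 in SI. LI gave 292 and 311 CPM, lung 297 and 322 and pancreas 320 and 320. Both BM libraries were the lowest, both SI libraries came next, and LI, lung and pancreas overlapped. BM was lower than pancreas by 0.56 ± 0.15 on the log2 scale (adjusted p = 0.0154), than lung by 0.51 ± 0.15 (0.0278) and than LI by 0.47 ± 0.15 (0.0277), and did not differ from SI beyond the spread (0.25 ± 0.15 lower, adjusted p = 0.256). In the order from pancreas through lung, LI and SI to BM, no neighbours differed beyond the spread. The tissue effect (adjusted p = 0.0333) was lost with library size alone (0.13), under which Ikzf4 was the called gene (0.0373), without either BM library (0.18 and 0.0793), without either lung library (0.0666 and 0.0905) and without either pancreas library (0.0737 and 0.0774).

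Ikzf2 (12 regions) read 185 and 227 CPM in LI, 210 and 195 in pancreas, 158 and 167 in lung, 148 and 157 in BM, and 125 and 172 in SI. LI and pancreas lay above the other tissues in every library, but the tissue effect was not called by edgeR (adjusted p = 0.073). It was by DESeq2 (0.0174). The SI-high region +141.6 kb is not in this sum, because its nearest TSS belongs to another gene. Ikzf3 (10 regions) read 129 to 211 CPM, with LI replicates at 138 and 211 (adjusted p = 0.513). Ikzf4 (2 regions) read 36.9 to 67.4 CPM and was lowest in BM (0.263), and Ikzf5 (1 region) read 50.9 to 91.5 CPM (0.348). No pair of tissues differed for Ikzf2 to Ikzf5 at an adjusted p under 0.05. CPM of gene sums and of single regions were scaled in separate tables, so the Ikzf5 values differ slightly between them.

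**Figure D5:**
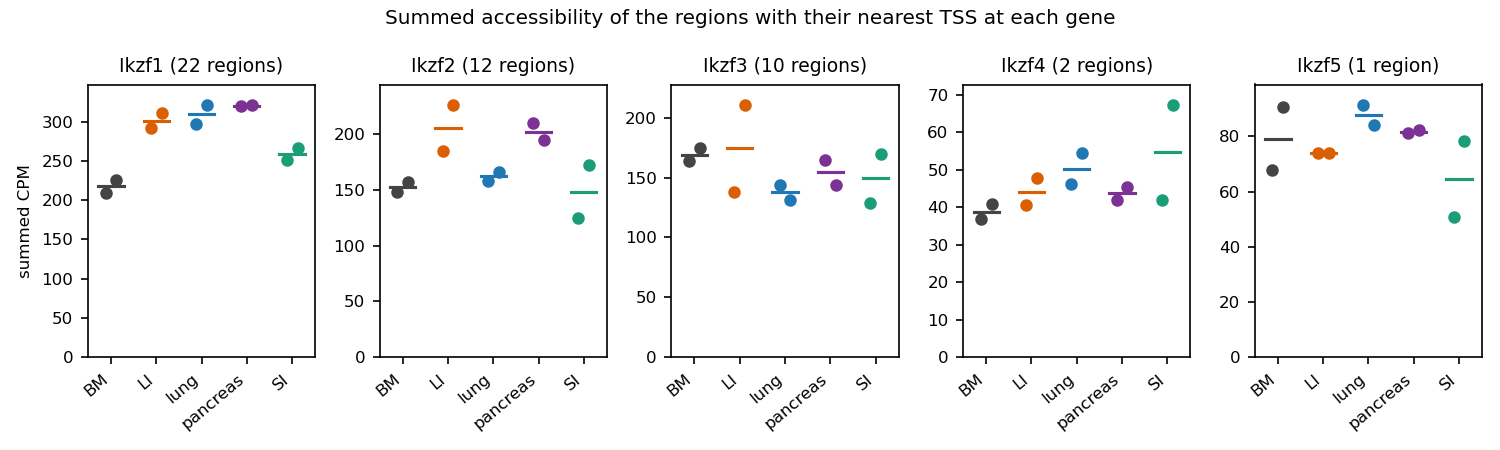
Summed CPM per library of the regions with their nearest TSS at each gene, 1 panel per gene with its own axis from 0. Points are libraries and bars the mean of 2. Ikzf1 is lowest in BM (209 and 225 CPM), and the tissues overlap in Ikzf3 and Ikzf5.

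The genes whose sums followed the family most closely were found by the Euclidean distance of centred log2 CPM over the 10 libraries, among 5905 genes with at least 3 regions and 5 CPM. They were Gpr171 (distance 0.247), Phf2 (0.249) and Abl2 (0.25) for Ikzf1, and Samsn1 (0.197), Spcs3 (0.226) and Gm32124 (0.258) for Ikzf2. The nearest genes for Ikzf3 were Gm46828 (0.32), Sp4 (0.333) and Gm32457 (0.336). For Ikzf4 they were Gm32143 (0.37), 5830433I10Rik (0.379) and Neu3 (0.382), and for Ikzf5 Chmp1b (0.35), Fbxl21 (0.354) and Cdk13 (0.355). A flat profile would lie at a distance of 0.66 to 0.763 from the family genes, so Samsn1 was by this measure the closest match.

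Among the proteins that work with Ikaros factors, 20 of the 22 genes listed (co-repressor subunits of NuRD, Sin3 and CtBP and the cereblon ubiquitin ligase) had a region, and 8 differed between tissues, a share near the 37.4% of all genes. BM was the highest tissue in most listed genes, called or not, and in 5 of these 8. They were Rbbp7 (77.3 CPM in BM, 48.0 in LI, adjusted p = 0.0203), Mbd3 (197.5 and 110.8, 0.0261) and Gatad2b (125.7 and 81.9, 0.0182), subunits of NuRD, and Ddb1 (69.9 and 47.8, 0.0485) and Rbx1 (111.9 in BM, 72.1 in pancreas, 0.0448), components of the ligase. Mbd2, a methyl-CpG reader of NuRD, was lowest in BM (16.2 CPM against 49.0 in LI, adjusted p = 8.21e-05). Hdac2, a histone deacetylase, was highest in LI (62.2 CPM) and lowest in SI (33.2, 0.00245), and Ctbp2, a co-repressor, highest in pancreas (31.1) and lowest in SI (13.0, 0.00137). Values of these lists are tissue means of gene sums, and how often BM was the highest tissue over all called genes was not counted. Crbn, the receptor through which thalidomide analogues act on Ikaros and Aiolos, read 59.7 to 70.3 CPM (0.831). The median fold between the highest and the lowest tissue was 1.52 in this list and 1.61 over all genes.

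Of 22 genes linked to Ikaros proteins in lymphocytes, 18 had a region and 11 differed between tissues, beside 37.4% of all genes, with a median fold of 1.62 against 1.61 over all genes. SI was the highest tissue in 5 of the 11, and how often it was so over all called genes was not counted. Dtx1, a Notch target, read 59.5 CPM in SI, 25.9 in LI and 6.36 in BM (adjusted p = 4.64e-06). Rag2 and Rag1, the recombinase genes, read 13.1 and 9.19 CPM in SI, 12.1 and 5.96 in LI, and 3.01 and 2.44 in lung (0.000189 and 0.00317). Hes1 and Notch1 were also highest in SI, at 105 and 60.8 CPM, with LI close at 96.6 and 58.4 (0.0278 and 0.0168). Their lowest tissues were pancreas (64.7 CPM) for Hes1 and BM (38.9) for Notch1. SI was the lowest tissue for Dntt, the terminal transferase gene, with 12.7 CPM against 66.6 in pancreas (4.64e-06), for Pdcd1, which encodes PD-1, with 94.5 against 222 in lung (0.00108), for Ifng with 52.8 against 98.0 in lung (0.00342), and for Il7r, the IL-7 receptor gene, with 198 against 306 in pancreas (0.0328). Il2 was highest in LI, at 74.3 CPM, with lung at 72.4 (0.0204). Gata3, the lineage factor of ILC2s, read 224 to 289 CPM and was not called (0.237).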

How the data were processed

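Reads of 10 ATAC-seq libraries (5 tissues, 2 libraries each) had been processed by the authors before deposit. They were mapped to mm10 with Bowtie2 2.2.9 and SAMtools 1.8, with quality checked by FastQC 0.11.9. Peaks were called with MACS2 2.1.1 in each library, and the peaks of the tissues were merged with HOMER. The deposited table holds raw counts of reads per merged peak, counted by bedtools, whole numbers without normalization. Removal of duplicates, a blacklist and a Tn5 shift are not given in the sources used here. Duplicated PCR reads would make counting error too small, and reads of repeats or a few very deep regions change the scaling.

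All 49981 regions with at least 1 count were fitted with edgeR 4.0.16 (R 4.3.3, TMM, quasi-likelihood test) on tissue alone, in a joint test and 10 contrasts, with Benjamini-Hochberg adjustment over all regions. SEs are the log2 fold change divided by the square root of F. Counts summed per gene were fitted in the same way. The script was tested on simulated data. Alternatives were DESeq2 1.42.0, other scalings, a filter of 10 counts in 2 libraries, fits per pair of tissues, a replicate block, and leaving out each library. Regions were annotated with all RefSeq models of GRCm38, and a promoter region has its centre between 1000 bp before and 100 bp after a TSS. Coordinates are those of the table, whose base (0 or 1) is not stated, while printed sequences are 1-based. Total counts of 10282987 to 32797872 set the precision. Regions named are the promoters, the most counted region and the 3 smallest p-values of each gene, and regions with a tissue pattern. The members and lists were chosen with earlier results of these data known. Replicate numbers did not pair the libraries. The values of 1 listed gene, and of a marker list that rests on it, are not reported here.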

Additional observations from a re-analysis of the deposited data

How the results depend on the processing

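The joint test called 24 regions, and 14 at an adjusted p under 0.01. Scaling by library size alone raised BM against lung from 9 to 15 calls and one-tissue patterns from 8 to 14. With the trend on mean count removed, LI against pancreas gave 2 calls, intestinal patterns 2 instead of 4, and gene sums 2. DESeq2 on the 10 libraries gave 3 calls for LI against pancreas and 2 gene sums. edgeR on the 4 libraries of each pair gave 14 for BM against lung, 8 for BM against SI, 1 for LI against SI, 6 for lung against pancreas and 4 for pancreas against SI, and DESeq2 on these 4 libraries gave 8 for BM against SI and 4 for pancreas against SI. Regions assigned by nearest TSS only, which leaves fewer regions, gave 0 for LI against pancreas and 1 for LI against SI. Without adjustment the contrasts in the order of the text gave 26, 23, 23, 22, 19, 18, 17, 7, 8 and 9 calls, in all 172 instead of 90. Requiring adjusted p in each contrast left 2 one-tissue and 0 intestinal patterns. Where the construction of an alternative does not show it, the cause was not tested.

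Leaving out each library in turn, with a lone library assumed to vary like the other groups, gave 17 to 32 calls in the joint test and 56 to 124 over all contrasts. The contrasts gave 9 to 22 for BM against LI, 0 to 12 for BM against lung, 7 to 20 for BM against pancreas, 5 to 15 for BM against SI, 1 to 13 for LI against lung, 0 to 4 for LI against pancreas, 1 to 7 for LI against SI, 0 to 7 for lung against pancreas, 5 to 11 for lung against SI and 3 to 13 for pancreas against SI. One-tissue patterns ranged from 3 to 12, intestinal patterns from 0 to 4 and gene sums from 0 to 3. Of the 24 called regions, 13 were called in all 16 alternatives. The log2 differences tested for the regions and gene sums named kept their sign in all alternatives. The family's median difference did not, since with library size alone it went from 0.20 to -0.04 for LI minus lung, from 0.14 to -0.09 for LI minus SI, from 0.14 to -0.10 for pancreas minus SI and from -0.07 to 0.18 for lung minus pancreas. Same-numbered libraries did not deviate together (correlations from -0.18 to 0.19), and with a replicate block 22 regions were called in the joint test. In every tissue, 2 libraries limit what can be told apart.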

Other observations

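Regions near the family genes whose centre and nearest TSS belong to none of the 5 genes were called about as often as others. Within 100 kb of a gene there were 9 such regions around Ikzf1, 10 around Ikzf2, 17 each around Ikzf3 and Ikzf4 and 3 around Ikzf5, and 6, 4, 9, 7 and 1 of them were called for tissue, beside 44.2% of all regions. A region 33.9 kb before the Ikzf1 TSS (chr11:11651790-11652296, nearest TSS 4930512M02Rik) was nearly closed in SI, at 0.481 and 0.209 CPM, and low in LI, at 1.57 and 1.65. BM gave 7.05 and 8.70 CPM there, lung 7.61 and 7.48 and pancreas 8.30 and 3.56, so all 4 intestinal libraries lay below the other 6 (edgeR, adjusted p = 1.16e-05).

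Beyond the end of Ikzf1, a region at +140 kb (chr11:11825608-11826183, nearest TSS Gm51937) gave 2.06 and 2.12 CPM in BM and 5.58 to 22.8 in the other 8 libraries (adjusted p = 5.22e-05). Near Ikzf4, a region whose nearest TSS is that of Pym1 (chr10:128750159-128750659) gave 1.47 and 1.20 CPM in BM and 3.92 to 9.50 elsewhere (adjusted p = 1.38e-05). These 3 regions were chosen after their values were seen.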
